A study of Rattus norvegicus with 5 samples.

Results

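The colony stimulating factor system of the rat dorsal horn was examined through 6 genes, the ligand genes Csf1 and Il34 and the receptor genes Csf1r, Csf2ra, Csf2rb and Csf3r. They were found by symbol among the 17321 genes of the count table, and all 6 passed the filter on low counts that left 13478 genes for testing. RNA came from the dorsal horn of the lumbar cord (L4-L6) of Sprague Dawley rats at day 9 from surgery. The surgery was either CCI, the usual abbreviation of chronic constriction injury, in which a peripheral nerve is loosely tied as a model of neuropathic pain, or SHAM, the operation without the injury. The labels give 3 CCI libraries and 2 SHAM libraries and name no other treatment, transgene or age. They do not say whether each library came from a separate animal, so errors and p-values here measure the spread between these libraries, which may be partly technical. Total estimated counts ran from 20053353 to 23673198 per library. Ribosomal Rn28s took 15.2% of the counts of CCI 3 and at most 2.39% of those of any other library, and no receptor's call was lost when CCI 3 was left out. In summed markers of fibroblasts, Schwann cells and border macrophages, CCI 1 lay below both SHAM libraries, whereas CCI 2 and CCI 3 lay above both. The values are given with the marker lists.

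Colony stimulating factors are secreted proteins that keep myeloid cells alive and make them divide and mature. CSF1 and IL-34 share little sequence but bind the same receptor tyrosine kinase, CSF1R, on which microglia, the resident macrophages of the central nervous system, depend for survival. GM-CSF, the product of Csf2, acts through a specific alpha chain encoded by Csf2ra and a signalling beta chain encoded by Csf2rb, which the receptors for IL-3 and IL-5 also use. G-CSF, the product of Csf3, acts through CSF3R, best known from neutrophils. In rodents, injured sensory and motor neurons are known to make CSF1, and spinal microglia respond to it, while IL-34 in the brain is largely a product of neurons.

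The receptors differed far more between CCI and SHAM libraries than the ligands did. Each of the 4 receptor genes was higher in every CCI library than in either SHAM library, with median log2 fold changes of 1.89 for the receptors and 0.37 for the ligands, beside 0.01 for all tested genes. Csf2rb differed most, at 14.6-fold by the fit, followed by Csf3r at 4.37-fold, Csf1r at 3.12-fold and Csf2ra at 1.97-fold. Csf1 was 1.37-fold higher and Il34 1.22-fold higher in CCI. A gene was called when edgeR's quasi-likelihood test gave an adjusted p no greater than 0.05 and the fold was 1.5 or more. By this rule 4 of the 6 genes, all of them receptors, were called higher and none lower, where 2.85% of all tested genes were called, 2.59% as higher in CCI and 0.26% as lower. Every CCI library exceeded both SHAM libraries for 5 of the 6 genes, as it did for 18.6% of all tested genes. The 6 genes were selected on family membership with their CCI and SHAM values already in view, so their differences and the count of calls are a description, from which nothing is read.

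**Figure D1:**
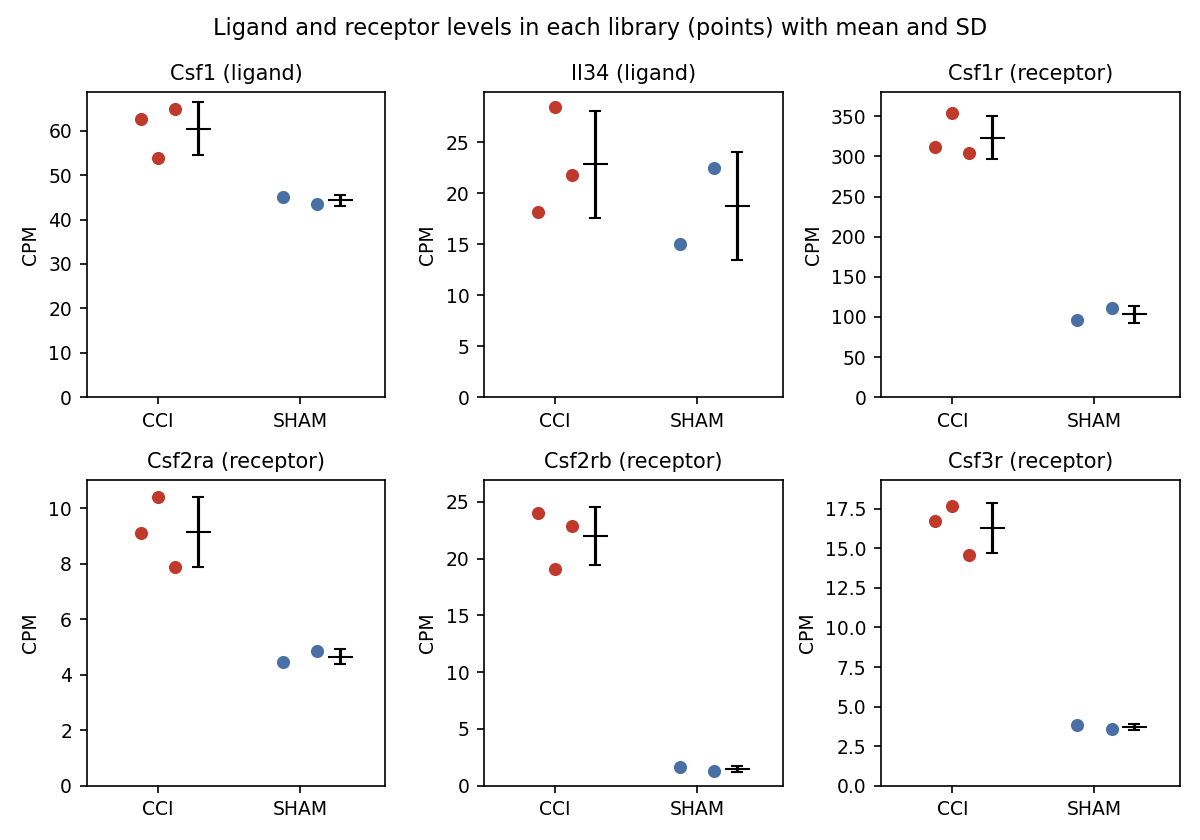
Level of each ligand and receptor gene in CPM (linear axis from 0), one point per library, with the mean and SD beside the points for 3 CCI and 2 SHAM libraries. The receptor panels show separated groups, up to 22.0 against 1.49 CPM for Csf2rb, whereas the Il34 points of the groups overlap.

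Of the ligands, Csf1, which encodes the macrophage growth factor, was the more abundant in CPM, which are counts scaled to library size. It stood at 62.6, 53.8 and 65.0 CPM in CCI 1, CCI 2 and CCI 3, against 45.1 and 43.4 CPM in SHAM 1 and SHAM 2. The groups did not overlap, but the lowest CCI library was only 1.19 times the higher SHAM library. The log2 fold change was 0.45 (SE 0.12), which is under the 1.5-fold used for a call. It lay between 0.39 and 0.53 when libraries were left out in turn.

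Il34, which encodes the second ligand of CSF1R, did not separate the groups. It had 18.1, 28.4 and 21.8 CPM in the CCI libraries, against 15.0 and 22.5 CPM in the SHAM libraries. CCI 1 and CCI 3 lay between the SHAM libraries, and CCI 2 lay above both. The log2 fold change was 0.29 (SE 0.24), and it rested on single SHAM libraries, being 0.02 without SHAM 1 and 0.60 without SHAM 2. Relative to its mean, Il34 varied more than any other of the 6 genes within the CCI group, with an SD of 22.8% of the mean, and also within the SHAM group, with 28.2%.

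Csf1r, which encodes the receptor tyrosine kinase shared by both ligands, was the most abundant of the 6 genes in every library. It had 312, 354 and 304 CPM in the CCI libraries, against 95.6 and 111 CPM in the SHAM libraries. The lowest CCI library was 2.73 times the higher SHAM library, and the 3 CCI libraries differed among themselves by an SD of 8.27% of their mean. These levels rest on 6741, 8912 and 5733 counts in CCI and on 2104 and 2228 counts in SHAM. The log2 fold change was 1.64 (SE 0.12).

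The chains of the GM-CSF receptor differed by very unequal amounts. Csf2ra, the ligand-specific alpha chain gene, had 9.12, 10.4 and 7.90 CPM in CCI, against 4.45 and 4.85 CPM in SHAM. Its log2 fold change was 0.98 (SE 0.20). Csf2rb, the shared beta chain gene, had 24.0, 19.1 and 22.9 CPM in CCI, against 1.68 and 1.30 CPM in SHAM. Its log2 fold change was 3.87 (SE 0.21). The Csf2rb values in SHAM rest on only 37 and 26 counts, against 518, 481 and 432 counts in CCI. By log2 fold change Csf2rb ranked 47 and Csf2ra 712 among the 13478 tested genes. Csf2ra was not called without CCI 2, without SHAM 1, without SHAM 2 and with limma-voom. There its log2 fold change was 0.87 without CCI 2, 0.91 without SHAM 1, 1.03 without SHAM 2 and 0.98 with limma-voom.

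Csf3r, the G-CSF receptor gene, had 16.7, 17.7 and 14.6 CPM in CCI, against 3.86 and 3.60 CPM in SHAM. The CCI libraries lay close together and all far above SHAM, the lowest being 3.79 times the higher SHAM library. Its log2 fold change of 2.13 (SE 0.17) stood between those of Csf1r and Csf2rb. Counts were 360, 446 and 276 in CCI and 85 and 72 in SHAM.

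**Figure D2:**
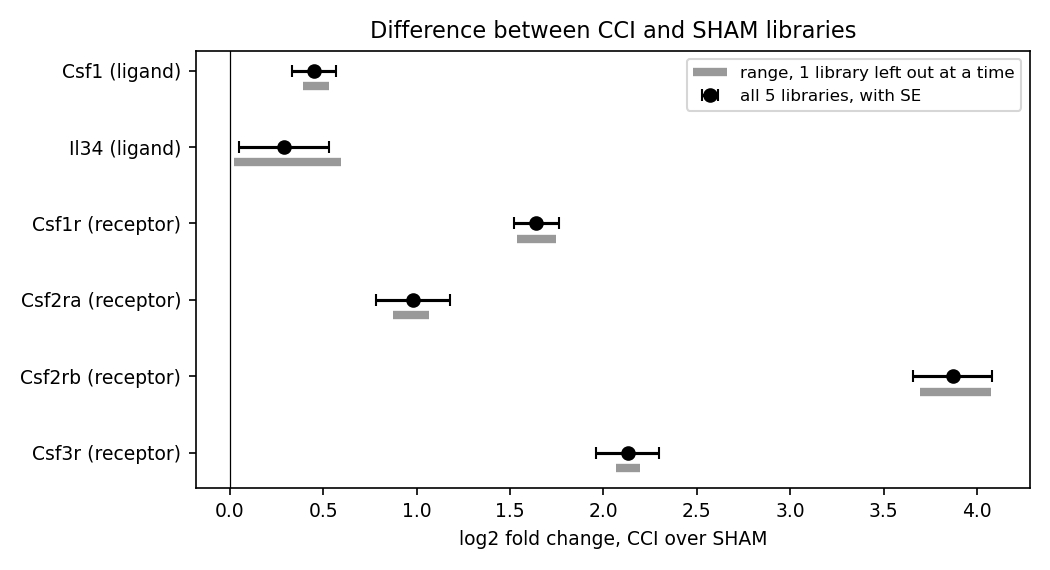
Log2 fold change of CCI over SHAM for the 6 genes (black points, with the SE from edgeR's quasi-likelihood fit of all 5 libraries) and the range when each library was left out in turn (grey bars). The receptors lie between 0.98 and 3.87 and the ligands at 0.45 and 0.29, and the grey bar of Il34 reaches down to 0.02.

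Levels of different genes can be compared only per transcript length, for which the deposited normalized values, named TPM by the authors, were used. In CCI, Csf1r averaged 109 ± 9.15 TPM (SD, n = 3), Il34 20.3 ± 4.81, Csf1 18.9 ± 1.86, Csf2rb 9.63 ± 1.09, Csf2ra 9.04 ± 1.29 and Csf3r 6.61 ± 0.618 TPM. In SHAM, Csf1r averaged 34.3 ± 3.60 TPM (SD, n = 2), Il34 16.3 ± 4.47, Csf1 13.6 ± 0.410, Csf2ra 4.52 ± 0.226, Csf3r 1.48 ± 0.0792 and Csf2rb 0.641 ± 0.119 TPM. Il34 and Csf1 overlapped in both groups, and Csf2rb and Csf2ra overlapped in CCI. All other neighbours in the order were separated in every library. Csf2rb was thus the lowest of the 6 in SHAM and lay beside Csf2ra in CCI, while the top of the order, Csf1r followed by the ligands, was alike in both groups. This order is specific to the per-length scale: by CPM, Csf1 lay above Il34 in every library.

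**Figure D3:**
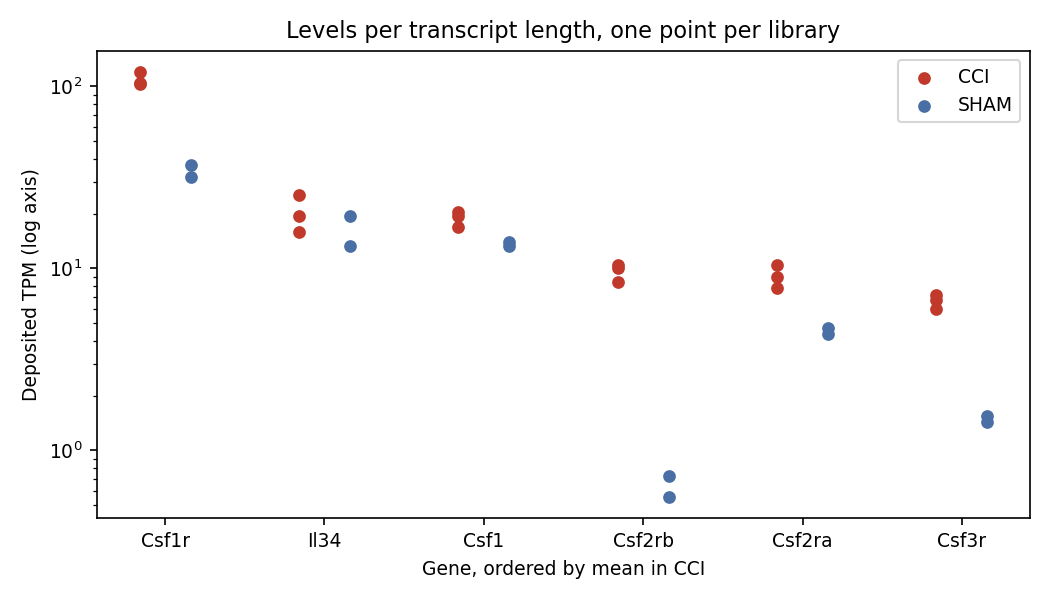
Deposited TPM of the 6 genes on a log axis, one point per library, CCI points left of SHAM points within each gene, ordered by the CCI mean. Csf2rb lies between 8.39 and 10.4 TPM in CCI and at 0.725 and 0.557 TPM in SHAM, while Il34 and Csf1 differ little between groups and overlap each other.

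Ratios within a library show the same shift of receptor over ligand without scaling between libraries. The TPM of Csf1r over the sum of Csf1 and Il34 was 2.96, 2.83 and 2.59 in the CCI libraries, against 1.17 and 1.12 in the SHAM libraries. Receptor transcript and summed ligand transcripts were therefore near parity in SHAM, and the receptor was in excess in every CCI library. For the GM-CSF receptor, the TPM of Csf2rb over Csf2ra was 1.17, 0.807 and 1.29 in CCI, against 0.166 and 0.119 in SHAM. The chains were close to equal in CCI, whereas in SHAM the alpha chain exceeded the beta chain in both libraries. Csf3r over Csf1r was 0.0640, 0.0600 and 0.0576 in CCI, against 0.0484 and 0.0387 in SHAM. Csf2ra over Csf1r ran the other way, at 0.0854, 0.0868 and 0.0756 in CCI, against 0.137 and 0.127 in SHAM. Among the ligands, Csf1 over Il34 was 1.22, 0.663 and 1.05 in CCI and 1.05 and 0.683 in SHAM, with no separation of the groups.

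The promoters of Csf1r, Csf2ra and Csf3r, receptor genes that were higher together, are shown because PU.1, the myeloid transcription factor encoded by Spi1, is known to bind the Csf1r and Csf3r promoters in mouse and human. The sequences are the 250 bases before the start in the RefSeq promoter table of the build GRCr8, which held 3 of the 6 genes. They lie at chr18:56834129-56834378 (plus strand) for Csf1r, chr14:118118-118367 (minus strand) for Csf2ra and chr5:143582970-143583219 (plus strand) for Csf3r. Sequences run 5′ to 3′ on the gene's strand, and capitals mark the PU.1 core GAGGAA or its reverse complement.
Csf1r: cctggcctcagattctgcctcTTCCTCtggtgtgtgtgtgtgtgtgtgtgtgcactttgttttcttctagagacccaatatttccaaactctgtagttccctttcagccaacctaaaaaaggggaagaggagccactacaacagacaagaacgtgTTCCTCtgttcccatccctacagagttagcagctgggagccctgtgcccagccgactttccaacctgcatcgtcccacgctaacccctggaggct
Csf2ra: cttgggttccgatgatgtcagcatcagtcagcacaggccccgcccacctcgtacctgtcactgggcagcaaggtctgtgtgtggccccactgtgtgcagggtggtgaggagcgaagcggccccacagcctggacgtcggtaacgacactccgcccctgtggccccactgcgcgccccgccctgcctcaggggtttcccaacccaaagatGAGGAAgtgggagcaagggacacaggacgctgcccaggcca
Csf3r: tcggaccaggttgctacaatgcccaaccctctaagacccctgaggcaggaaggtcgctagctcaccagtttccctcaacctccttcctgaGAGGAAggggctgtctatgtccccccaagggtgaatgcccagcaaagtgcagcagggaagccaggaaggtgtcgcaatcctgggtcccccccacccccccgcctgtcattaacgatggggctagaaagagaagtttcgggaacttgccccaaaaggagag
The core was found at 2 places in the Csf1r window, both on the opposite strand, and at 1 place on the gene's own strand in the Csf2ra and Csf3r windows. It was found on either strand in 23.3% of the 33469 promoter windows of this length. The looser C/EBP-type pattern TTNNGNAA was also present in each of the 3 windows, and in 37.2% of all windows, overlapping the PU.1 core in none of them. Neither the RUNX core TGTGGT (14.5% of all windows) nor the AP-1 pattern TGANTCA (6.34%) matched in these windows. A match is an exact run of letters and not a site shown to be bound. Whether the marked letters are the PU.1 sites known from mouse and human was not tested, and such sites may lie in unmarked letters. Other RefSeq models of these genes begin up to 227, 691 and 94 bases further upstream for Csf1r, Csf2ra and Csf3r.

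The ligands of the other receptors were nearly absent; the genes of this list were all named, after their values were seen. Csf2, the GM-CSF gene, and Il5 had no count in any library, where 3 counts, taken as the detection floor, correspond to 0.119 to 0.159 CPM. Such floors cover counting error only. Csf3, the G-CSF gene, had 1, 0 and 0 counts in CCI and 0 and 1 in SHAM, and Il3 had none in CCI and 0 and 2 counts in SHAM. Their transcripts were therefore not detectable above this floor in either group, although Csf2rb, Csf2ra and Csf3r were measured in all 5 libraries. Il3ra, the alpha chain gene of the IL-3 receptor, which pairs with the beta chain, gave 20.7, 23.2 and 20.0 CPM in CCI, against 21.4 and 22.9 CPM in SHAM (log2 fold change -0.05, SE 0.12). Il5ra had at most 3 counts in any library. The alpha chain genes of the beta chain's partners thus had log2 fold changes of 0.98 for Csf2ra and -0.05 for Il3ra, beside 3.87 for Csf2rb. Other proteins reported to bind IL-34 are PTP-zeta and syndecan-1. Ptprz1 had 463 ± 43.7 CPM in CCI (SD, n = 3) and 430 ± 33.5 CPM in SHAM (SD, n = 2; log2 fold change 0.11, SE 0.12). Sdc1, the syndecan-1 gene, rose by 1.54 (SE 0.33, adjusted p = 0.0491), with 11.8, 7.82 and 5.83 CPM in CCI against 3.32 and 2.50 CPM in SHAM. The Sdc1 call was lost without either SHAM library and with RLE scaling, limma-voom or the deposited normalized values.

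Genes that carry the signal inside the cell and genes that control the receptors were counted in lists. Vav1, Fgr and Spi1, known from blood and myeloid cells, rose, and so did Shc1, a broadly used adaptor gene (0.86, SE 0.16, adjusted p = 0.0229). Grb2 and Akt1, which most cells use, did not pass, nor did Syk and Fli1, known from blood cells. Shc1, Syk and Fli1 were named after their values were seen, and Shc1 and Syk have fractional estimated counts and are uncertain. Over the 4 lists drawn up around the receptors, 25 of 73 tested genes (34.2%) were called higher and none lower, beside 2.59% of all tested genes called higher. Their median log2 fold change was 0.57, beside 0.01 for all tested genes. The lists were drawn up with earlier results of these data known, and many of their genes are also known microglial genes. Leaving out a SHAM library reduced the calls to 7 without SHAM 1 and 8 without SHAM 2, while over all genes the number called higher was 61 and 73 there, against 349 with all libraries. These 7 and 8 genes were all among the 25.

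In the list of proximal signalling, 13 of 33 tested genes were called higher, beside 2.59% of all tested genes. The list median was 0.62, and 23 of the 33 had a positive log2 fold change. The 4 with the smallest p were Vav1, Pik3ap1, Inpp5d and Fgr, each called in all 13 alternatives that were run. Vav1, a guanine nucleotide exchange factor of blood cells, rose by 2.39 (SE 0.20, adjusted p = 0.000600), with 11.0, 14.1 and 12.9 CPM in CCI against 2.23 and 2.60 CPM in SHAM. Inpp5d encodes SHIP-1, a lipid phosphatase that opposes PI3-kinase signalling, and rose by 1.39 (SE 0.14, adjusted p = 0.00139). Pik3ap1, an adaptor of PI3-kinase, rose by 1.57 (SE 0.16, adjusted p = 0.00127). The Src-family kinase gene Fgr rose by 2.13 (SE 0.22, adjusted p = 0.00146). Genes for broadly used parts of the pathway were chosen for naming after their values were seen. The log2 fold change was -0.13 (SE 0.11) for Grb2, the adaptor that links receptors to Ras, 0.04 (SE 0.10) for the kinase gene Src and -0.06 (SE 0.12) for Akt1. Adam17, likewise named, which encodes the protease that sheds CSF1R from the cell surface, had 0.12 (SE 0.13).

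The JAK and STAT list, through which the GM-CSF and G-CSF receptors signal, held 3 called genes among 17 tested, all higher in CCI. Over all tested genes, 2.59% were called higher. The list median was 0.31, and 16 of the 17 had a positive log2 fold change. Socs3, a feedback inhibitor that binds the G-CSF receptor among others, rose by 2.42 (SE 0.35, adjusted p = 0.00733), with 7.36, 4.33 and 4.93 CPM in CCI against 0.818 and 1.25 CPM in SHAM. Stat6, known from IL-4 signalling, rose by 1.07 (SE 0.15, adjusted p = 0.00669), and Jak3, the kinase of the common gamma chain, by 0.78 (SE 0.15, adjusted p = 0.0283). Neither of those is the kinase or STAT chiefly used by the colony stimulating factor receptors. Jak2, which serves the beta chain, was chosen after its values were seen. It had 60.3, 70.9 and 65.2 CPM in CCI against 43.7 and 44.7 CPM in SHAM, and at 1.48-fold it missed the fold required although its adjusted p was 0.0281. Stat5a and Stat5b, also named after their values were seen, had log2 fold changes of 0.06 (SE 0.15) and 0.09 (SE 0.12). Both have fractional estimated counts and may share reads with each other. Stat3, likewise named, had 200, 145 and 141 CPM in CCI, against 129 and 111 CPM in SHAM. Its log2 fold change was 0.43 (SE 0.17), and it was not called. No gene of this list was called without SHAM 1 or without SHAM 2.

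The list of transcription factors had the highest median, 0.71. Of its 20 tested genes, 8 were called higher, beside 2.59% of all tested genes, and all 20 had a positive log2 fold change. Spi1, which encodes PU.1, rose by 1.76 (SE 0.18, adjusted p = 0.00146), with 12.6, 12.3 and 10.9 CPM in CCI against 3.27 and 3.75 CPM in SHAM. Its call held in all 13 alternatives that were run. Cebpd rose by 2.10 (SE 0.23, adjusted p = 0.00173), Ikzf1 by 2.22 (SE 0.25, adjusted p = 0.00227) and Cebpa by 1.44 (SE 0.17, adjusted p = 0.00229). Cebpa has fractional estimated counts and is uncertain. Irf8, a partner of PU.1 named after its values were seen, rose by 2.47 (SE 0.28, adjusted p = 0.00357). Runx1, which also acts on the Csf1r gene in mouse and was named after its values were seen, had 0.57 (SE 0.22) and did not pass.

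**Figure D4:**
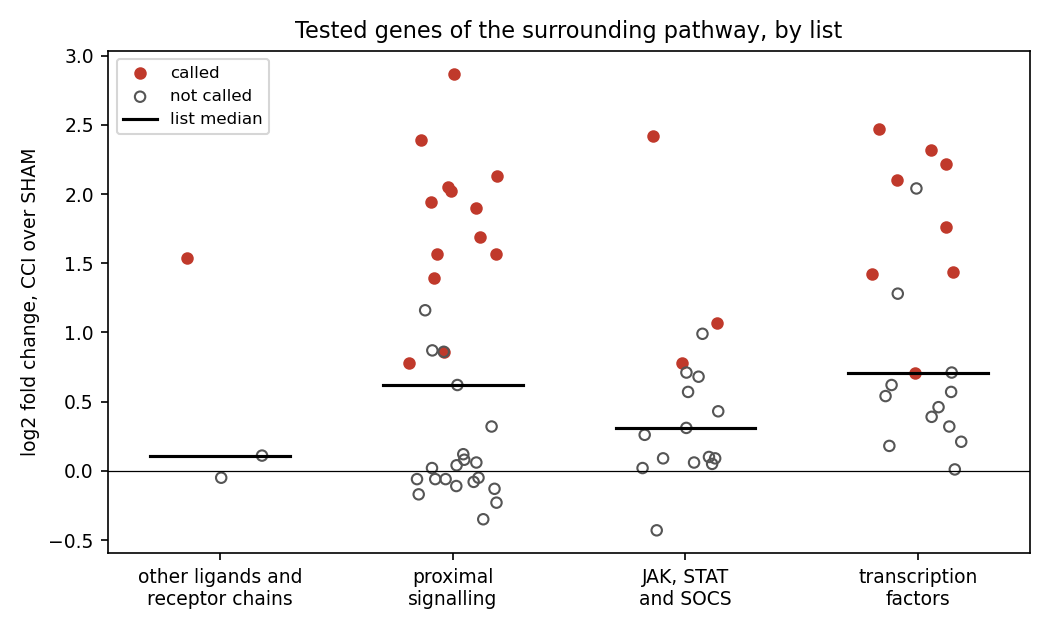
Log2 fold change of CCI over SHAM for each tested gene of 4 lists around the receptors (filled points called by edgeR's quasi-likelihood test at an adjusted p of 0.05 and a fold of 1.5, open points not called, bars the list medians; horizontal spread within a list is for legibility). All 25 called genes lie above 0, and the medians run from 0.11 to 0.71.

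Marker genes of the cells that carry these receptors differed between the groups as well. In bulk tissue, more cells of a type and more RNA per cell cannot be told apart. The 16 microglial markers in the table summed to between 1320 and 1520 CPM in CCI, against 509 to 582 CPM in SHAM. Of the 16, 11 were called higher, beside 2.59% of all tested genes. Their log2 fold changes were uneven. Those of Itgam and Aif1 were 1.82 (SE 0.13) and 2.03 (SE 0.29) and those of Cx3cr1 and P2ry12 1.21 (SE 0.11) and 1.05 (SE 0.12), while Tmem119 had 0.23 (SE 0.45). Cx3cr1 has fractional estimated counts and is uncertain. Csf1r at 1.64, Csf2ra at 0.98 and Csf3r at 2.13 lay within the span of the 16 markers, in which C1qa at 2.36 (SE 0.12), named after its values were seen, was higher than Csf3r. That span is wide, from 0.23 to 3.21, and Csf1 at 0.45 and Il34 at 0.29 lay within it too. Csf2rb at 3.87 lay above every one of the 16, the highest of which, named for that reason, was Cd68 at 3.21 (SE 0.35). What part these markers' cells had in the receptor differences was not tested.

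Neutrophil markers, which bear on Csf3r, were below 1 CPM in every library, except for Ltf. The 12 in the table summed to 4.81 to 7.11 CPM in CCI, against 4.15 to 4.95 CPM in SHAM, with Ltf the largest part in every library. Ltf, named after its values were seen, was at 3.19, 2.82 and 4.56 CPM in CCI, against 3.14 and 2.70 CPM in SHAM. It has fractional estimated counts and is uncertain. S100a8 was at 0.0926, 0.0397 and 0.212 CPM in CCI and at 0 in both SHAM libraries. Mpo and Cxcr2 were at most 0.159 and 0.198 CPM in any library. Mmp9 and Prtn3, named after their values were seen, went opposite ways. Mmp9 was at 0.185, 0.516 and 0.318 CPM in CCI, against 0.0455 and 0.05 CPM in SHAM. Prtn3 was at 0.694, 0.715 and 0.53 CPM in CCI, against 0.727 and 0.799 CPM in SHAM. What part neutrophils had in the Csf3r difference was not tested. Among lymphocyte markers, Cd3e was at 0, 2.22 and 0.477 CPM in CCI and at 0 in SHAM.

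Markers of border macrophages, monocytes, Schwann cells and fibroblasts were uneven among the CCI libraries. Border macrophage markers (9 in the table) summed to 78.0, 125 and 144 CPM in CCI 1 to 3, against 83.6 and 80.7 CPM in SHAM. Their defining genes Mrc1, Cd163 and Lyve1 were at 5.74, 2.04 and 13.8 CPM in CCI 1, within or below the SHAM values. Folr2, the 1 called gene of 9 tested (2.59% of all tested genes were called higher), was named after its values were seen. It was at 1.48, 3.14 and 1.80 CPM in CCI, against 0.545 and 0.300 CPM in SHAM. Likewise named, Ms4a7 was at 0.37, 1.67 and 1.01 CPM in CCI and at 0 in SHAM. Pf4 was at 0.417, 0.516 and 0.848 CPM in CCI, against 0.182 and 0.35 CPM in SHAM. These 3 genes were thus above SHAM in CCI 1 too. Of the 9, 4 lay above SHAM in every CCI library and 0 below, beside 18.6% and 18.1% of all tested genes. Siglec1 was the largest part of the CCI 1 sum, at 51.9 CPM. Both Siglec1 and Lyve1 have fractional estimated counts and are uncertain. Fibroblast markers summed to 153, 812 and 682 CPM in CCI, against 162 and 196 CPM in SHAM, and Schwann cell markers to 232, 454 and 876 CPM in CCI, against 240 and 256 CPM in SHAM. Neither list had a called gene. The 6 monocyte markers in the table summed to 224, 628 and 425 CPM in CCI, against 149 and 165 CPM in SHAM. Of 5 tested, 1 gene was called higher, beside 2.59% of all tested genes. That gene, Plac8, also named after its values were seen, was high in every CCI library, with 30.5, 55.8 and 33.4 CPM, against 0.773 and 1.40 CPM in SHAM. Its log2 fold change of 5.21 (SE 0.43) exceeded that of Csf2rb. CCI 1, in which the border macrophage, fibroblast and Schwann cell sums lay below both SHAM libraries, had Csf1r at 312 CPM, beside 354 and 304 CPM in CCI 2 and CCI 3, but its monocyte sum was above both SHAM libraries. The part of these cells in the receptor differences was not tested. Without CCI 2 the log2 fold change of Csf1r was 1.57, without CCI 3 it was 1.68 and without CCI 1 it was 1.67. Motor neuron markers summed to 379, 130 and 244 CPM in CCI, against 834 and 576 CPM in SHAM. Of 8 tested, 4 were called lower, beside 0.26% of all tested genes. Csf1, which injured motor neurons are known to make, had a log2 fold change of 0.45 (SE 0.12). What part motor neurons had in the Csf1 values was not tested.

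**Figure D5:**
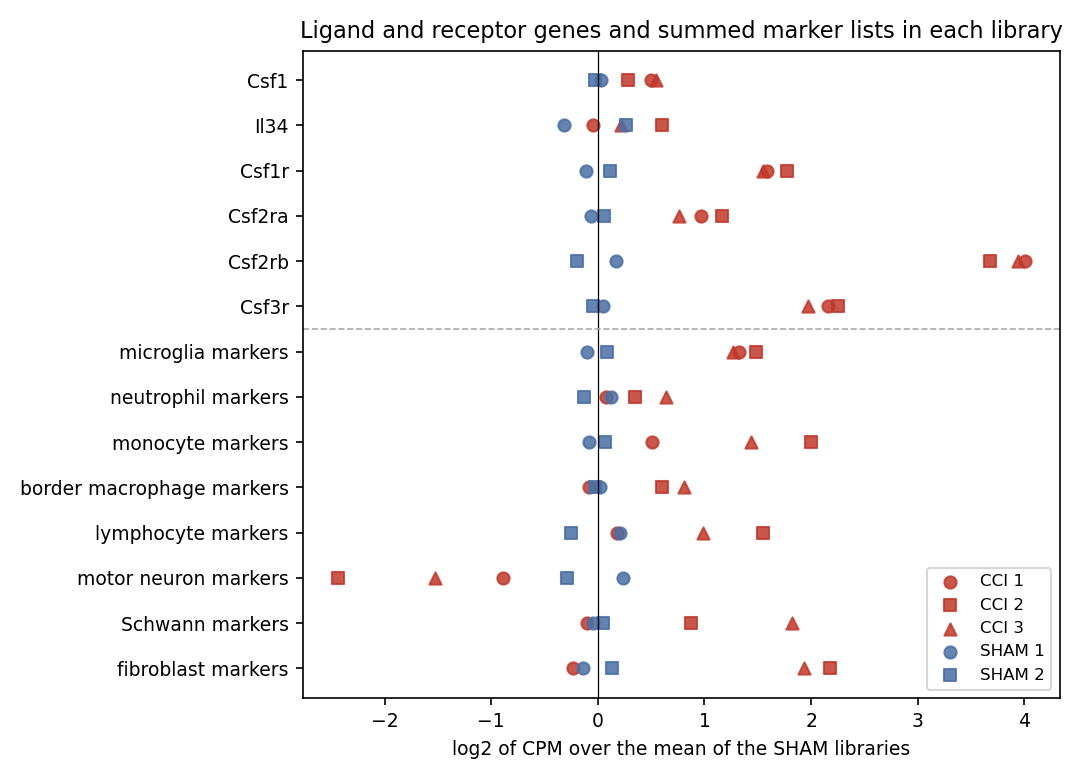
Log2 of the CPM in each library over the mean of the SHAM libraries, for the 6 genes (above the dashed line) and for the summed CPM of 8 marker lists (below it). The microglial sum lies between 1.27 and 1.48 in the 3 CCI libraries, while the fibroblast sum runs from -0.23 in CCI 1 to 2.18 in CCI 2.

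The genes most like each of the 6 over the 5 libraries were found as those with the smallest root mean square distance between gene-centred log2 CPM, among 12759 other genes with a mean of at least 1 CPM. The pattern of Csf1r was nearest to Tmem176b (distance 0.061), Gpnmb (0.068) and Ifi30 (0.078), with log2 fold changes of 1.62, 1.75 and 1.81. Csf3r was nearest to Fgr (0.103), Fgd2 (0.108) and Il21r (0.110). Csf2ra was nearest to Snx20 (0.022), Plcb2 (0.045) and Il4r (0.050), and Csf1 to Rassf4 (0.037), Dram2 (0.042) and the ATP receptor gene P2rx7 (0.042). Il34 was nearest to Sstr2 (0.036), a somatostatin receptor gene, LOC100910996 (0.056) and Tac3 (0.057). Csf2rb had no close neighbour, the nearest being Clec4a3 (0.292), Lgals3 (0.373) and C4a (0.392), so its distances were several times those of the other genes. Of these, Rassf4, Tmem176b, Ifi30, Il21r and C4a have fractional estimated counts and are uncertain. Within the set itself, Csf1r and Csf3r were the closest pair (0.250) and Il34 and Csf2rb the farthest apart (1.78). These distances describe 5 libraries that share their group structure and carry no test. They are not scaled to the size of a gene's difference. Few genes differed as much as Csf2rb, which ranked 47 by log2 fold change, so few could lie near it.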

How the data were processed

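The authors deposited estimated counts summed to gene symbols. Per the submitters' processing notes, kallisto 0.44.0 and the build rn6 were used. The authors also deposited a normalized table named TPM, handled as a signal since its column totals vary, and scaled by trimmed mean of M-values (TMM) per the labels. The annotation is not given in the sources used here. Groups came from the treatment label, and replicate numbers follow accession order.

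Estimated counts were rounded; those of the 6 genes were whole in every library. Genes passing filterByExpr (minimum count 10) were fitted with edgeR 4.0.16 in R 4.3.3 (TMM, robust glmQLFit, glmQLFTest, two-sided), and p-values were adjusted by Benjamini-Hochberg over the 13478 genes tested. Calls needed an adjusted p no greater than 0.05 and a 1.5-fold difference or more. The SE is the log2 fold change over the root of F. CPM used TMM-scaled library sizes. The fit has 3 residual degrees of freedom. Alternatives used DESeq2 1.42.0, limma 3.58.1 (voom, or log2 of the deposited values plus 0.5 or 0.1), the likelihood ratio test, other scalings, no filter, and each library left out. Scripts were tested on simulated data. The genes and lists were chosen with earlier results of these data known. Named genes were the 6 genes, up to 4 called genes of each pathway list by p, the 3 nearest patterns and fixed markers; the text marks other named genes as chosen after their values were seen. Of 85 pathway genes listed, 81 were in the table. Figures were drawn with matplotlib 3.10.9.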

Additional observations from a re-analysis of the deposited data

How the results depend on the processing

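None of the 6 genes changed direction in any of the 13 alternatives that were run. The count of them called higher was 4 in all but limma-voom, without CCI 2, without SHAM 1 and without SHAM 2, where it was 3, Csf2ra being the gene lost each time. With the deposited normalized table and a pseudocount of 0.5, which shrinks low values, the log2 fold change was 3.15 for Csf2rb and 1.84 for Csf3r. The count of pathway genes called higher ran from 7 to 29 when libraries were left out in turn, and from 23 to 28 under the other alternatives, with none called lower. Fewer libraries leave fewer degrees of freedom, and with a single SHAM library its spread is assumed to be that of CCI. On the CPM scale, which ignores length, 2 of the 6 genes kept their rank by TPM in CCI and 4 did in SHAM. No paired analysis was possible because the labels give no replicate numbers shared between CCI and SHAM. With 3 and 2 libraries the spread within SHAM is poorly known, and Csf2rb in SHAM and the genes below 1 CPM rest on few counts.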
